A study of Mus musculus with 30 samples.

Results

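Cerebral cortex of mice labelled Brapflox/floxTie2Cre was compared at 3 months of age with cortex of control mice labelled Brapflox/wt without Cre. The libraries were chosen by genotype and age as the labels give them, which took 5 Tie2-Cre and 4 control libraries, or 9 of the 30 libraries of the series. Sequencing was of polyadenylated RNA from whole cortex, with no cell sorting, and each library is labelled as a separate biological replicate. The labels call the phenotype of the Tie2-Cre mice mild and give no treatment for either group. The other libraries of the series came from mice in which Brap was deleted with Emx1-Cre (neural progenitors, 3 and 10 months) or Thy1-Cre (postnatal neurons, 3 months), and from controls of 10 months. These deletion mice are labelled Brapflox/flox with their Cre, as the Tie2-Cre mice are. Their phenotype is labelled strong at 3 months and, for Emx1-Cre at 10 months, recovered. The controls of 10 months are labelled Brapflox/wt without Cre. The design text places the Tie2-Cre deletion in vascular endothelium and calls the controls wild type-like littermates. The groups differed in Cre and also in the number of floxed Brap alleles, so the effects of the deletion, of the Cre transgene and of the second floxed allele cannot be told apart. In bulk RNA a change in the number of cells of a type and a change in RNA per cell cannot be told apart either.

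Brap, also called BRAP2 or IMP, is a RING-type ubiquitin ligase that binds RAS and restrains signalling to the MAP kinases. Tie2 is the older name of Tek, the endothelial receptor of the angiopoietins, and Cre under Tie2 control is known to act in endothelium and also in blood cells that descend from the same progenitors. Brain endothelium lines the cerebral vessels, forms the blood-brain barrier through tight junctions and carriers, and is kept in that state by Wnt ligands from neural cells. Endothelial cells make up a small share of cortical tissue.

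The 9 libraries held between 21430882 and 27270647 counts, and 16422 of 54418 genes were tested. Half-widths of the 95% confidence intervals were below 1 on the log2 scale for 95.0% of tested genes, with a median of 0.26. Xist and Y-linked genes showed 2 male and 2 female controls, and 3 male and 2 female Tie2-Cre mice. On the first principal component, with 23.2% of the variance, the controls lay between -17.9 and 57.2 and the Tie2-Cre libraries between -27.5 and 22.4, so the groups overlapped. Levels are given as CPM, a count scaled to the size of its library with the TMM method, and differences as log2 fold changes of Tie2-Cre minus control with standard error (SE). Genes are described as called where the quasi-likelihood test of edgeR gave a Benjamini-Hochberg adjusted p under 0.05 over all tested genes.

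Marker genes of the labelled tissue were present in every library. Pecam1, an adhesion molecule of endothelial junctions, lay between 10.4 and 21.1 CPM in controls and between 17.6 and 21.1 CPM in Tie2-Cre. Cldn5, the main claudin of the blood-brain barrier, lay between 11.2 and 21 CPM and between 13.1 and 19.5 CPM. Cortical neurons were marked by Tbr1, with 107 to 127 CPM in controls against 101 to 139 CPM in Tie2-Cre. Ttr, the main transcript of the choroid plexus, varied from 12 to 1135 CPM among controls and from 43.9 to 371 CPM in Tie2-Cre.

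Brap itself (chromosome 5, 121660563 to 121687256, plus strand, GRCm38) was not lower in the cortex of the Tie2-Cre mice. The controls measured 66.8, 59.0, 58.3 and 62.4 CPM and the Tie2-Cre libraries 68.1, 66.2, 65.8, 71.4 and 59.8 CPM. The ranges overlapped, and the log2 difference was 0.10 ± 0.07 (SE), with a 95% interval from -0.05 to 0.26 and an edgeR adjusted p of 0.969. The value covers the whole gene in all cells of the cortex, and the sources used here do not give the floxed exons, so the value checks neither the labels nor the deletion. Tek (chromosome 4, 94739289 to 94874976, plus strand) had 11.7, 14.1, 7.81 and 12.8 CPM in controls and 11.1, 10.8, 8.86, 9.11 and 7.70 CPM in Tie2-Cre, which also overlapped. Its log2 difference was -0.29 ± 0.17 (SE, adjusted p = 0.969). None of the 12 tested genes within 250 kb of Brap was called, and their differences lay between -0.27 and 0.05.

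Of all 16422 tested genes, 2 were called, 1 higher and 1 lower, each 0.00609% of the tested genes. Prss56 (chromosome 1, 87183313 to 87188405, plus strand), which encodes a trypsin-like serine protease known for its part in eye growth, rose in the Tie2-Cre cortex. It had 0.331, 0.197, 0.555 and 0.473 CPM in the controls and 4.47, 5.74, 5.67, 6.58 and 14.5 CPM in the Tie2-Cre libraries. Every Tie2-Cre library lay above every control, and replicate 5 lay far above the others. The means were 0.389 ± 0.158 CPM (SD, n = 4) and 7.39 ± 4.03 CPM (SD, n = 5), and the log2 difference was 4.23 ± 0.44 (SE, edgeR adjusted p = 0.0173).

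Sorcs2 (chromosome 5, 36017180 to 36398139, minus strand), a sorting receptor of the VPS10 family that pairs with the p75 neurotrophin receptor, fell. It had 69.2, 52.6, 68.4 and 68.7 CPM in controls and 34.3, 42.8, 37.4, 36.4 and 39.4 CPM in Tie2-Cre. The groups did not overlap, and control replicate 2 lay between the other controls and the Tie2-Cre libraries. The means were 64.7 ± 8.08 CPM (SD, n = 4) and 38.0 ± 3.22 CPM (SD, n = 5), and Sorcs2 fell by 0.77 ± 0.09 (SE) on the log2 scale (edgeR adjusted p = 0.0188). Both calls depended on single libraries: without control replicate 3 or without Tie2-Cre replicate 4, 0 genes passed, with 852 and 795 genes at an unadjusted p under 0.05. Prss56 also missed the threshold without control replicates 1 and 2, and Sorcs2 without control replicate 1 and without Tie2-Cre replicates 1 and 5.

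**Figure D1:**
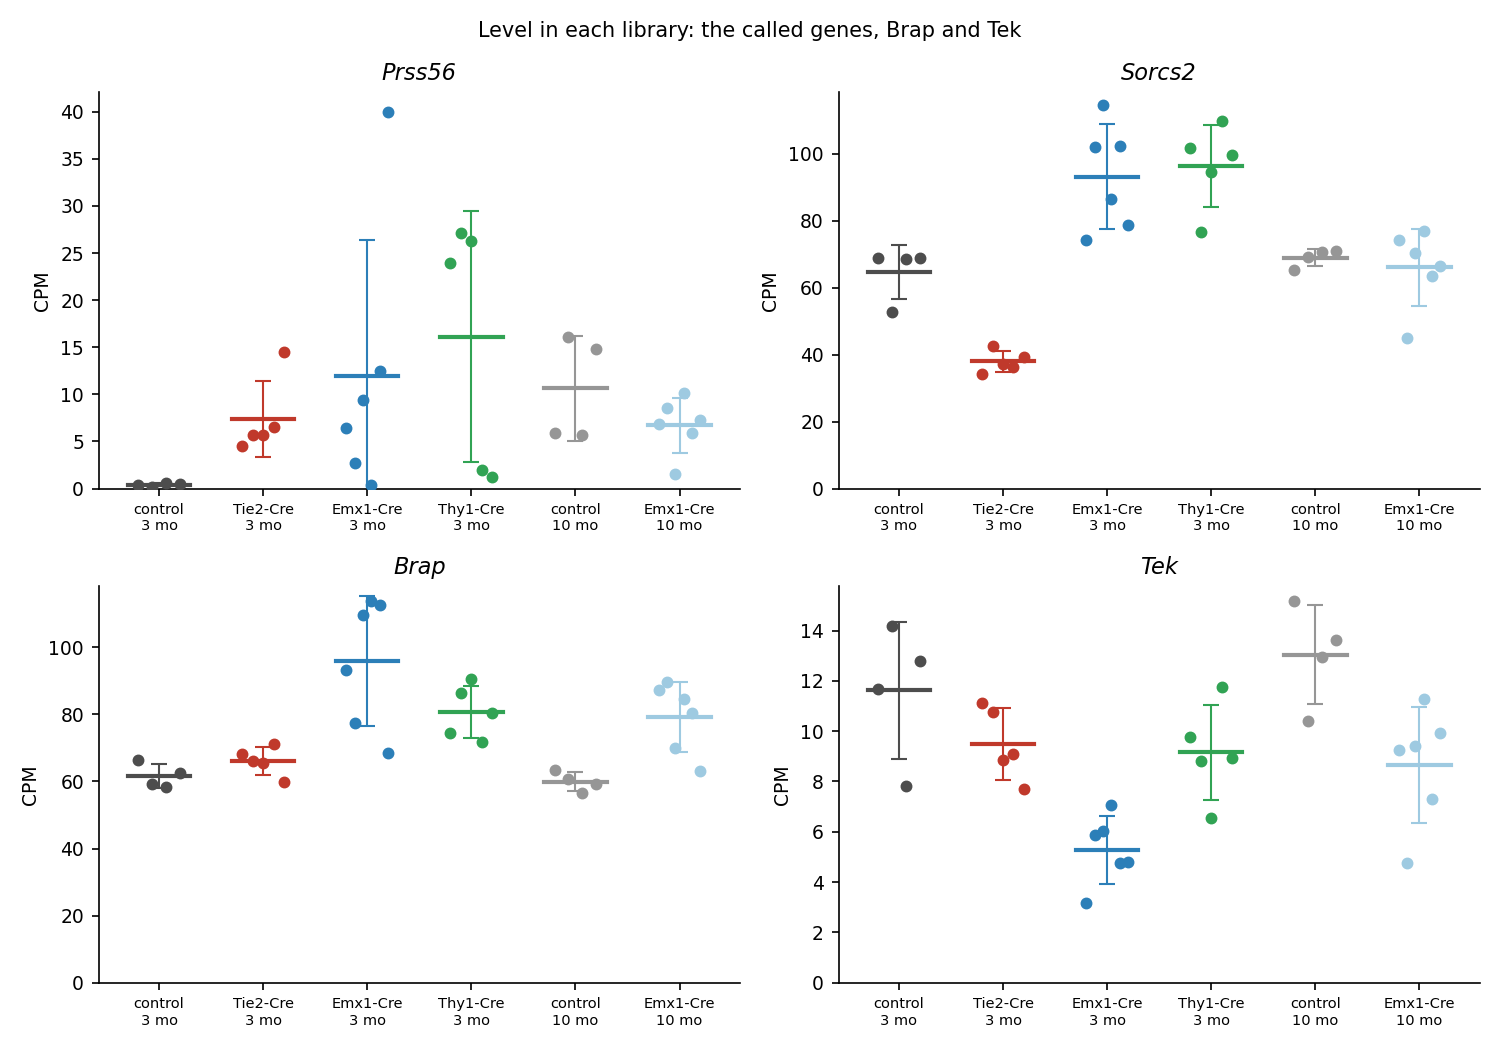
Level of Prss56, Sorcs2, Brap and Tek in CPM (linear axis from 0) in each of the 30 libraries, by group, with the mean as a bar and the SD as whiskers (mo, months). Prss56 stood low in the 3-month controls, at 0.198 to 0.556 CPM on the scale of the 30 libraries, and in 1 Emx1-Cre library of 3 months, at 0.422 CPM, while Sorcs2 stood low in the Tie2-Cre libraries, at 34.3 to 42.7 CPM.

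The other groups of the series placed these calls differently. For Prss56 the 10-month controls, of the same genotype label as the 3-month controls, had 5.65 to 16.1 CPM, a range that overlapped that of Tie2-Cre and not that of the 3-month controls. Emx1-Cre libraries of 3 months had 0.422 to 40 CPM and Thy1-Cre libraries 1.21 to 27.1 CPM. The differences of Tie2-Cre from Emx1-Cre (log2 -0.69, edgeR adjusted p = 0.531) and from Thy1-Cre (log2 -1.12, adjusted p = 0.406) were not called.

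For Sorcs2 the Tie2-Cre libraries stood apart. Every other library of the series had a higher level: 74.2 to 114 CPM in Emx1-Cre and 76.7 to 110 CPM in Thy1-Cre at 3 months, 65.4 to 70.9 CPM in the 10-month controls and 44.9 to 76.9 CPM in Emx1-Cre at 10 months. Tie2-Cre fell below Emx1-Cre by 1.29 on the log2 scale (edgeR adjusted p = 2.48e-06) and below Thy1-Cre by 1.34 (adjusted p = 6.34e-06), in a fit of the 20 libraries of 3 months. Every Emx1-Cre and Thy1-Cre library of 3 months also lay above every 3-month control (52.8 to 68.8 CPM), so the contrasts include that distance. They also reuse the Tie2-Cre libraries by which Sorcs2 was picked. In the same fit Sorcs2 was not called against control.

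**Figure D2:**
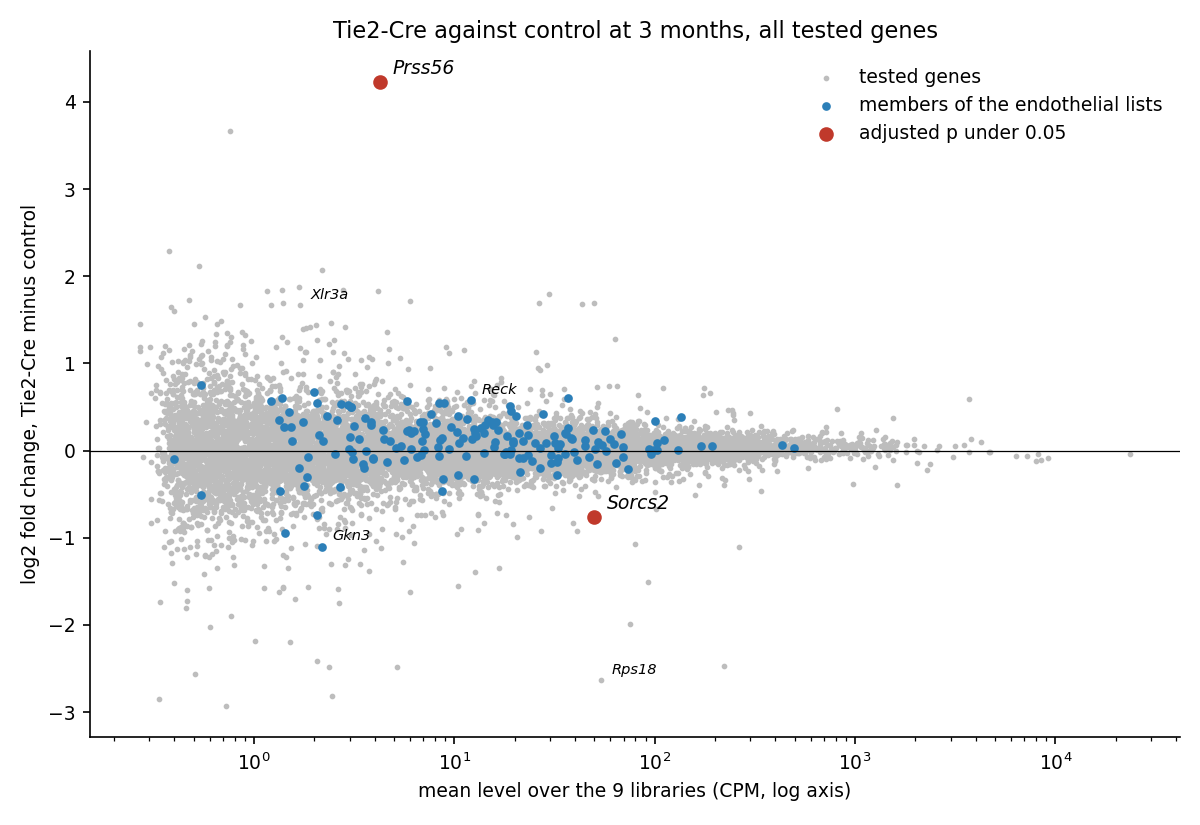
Log2 fold change of Tie2-Cre minus control against the mean level over the 9 libraries (CPM, log axis) for the 16422 tested genes, with 175 members of the endothelial lists in blue and the 2 called genes in red. The endothelial genes lay between -1.10 and 0.76, within the cloud of the other genes.

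At an unadjusted p under 0.05, 422 genes were higher in Tie2-Cre (2.57% of those tested) and 441 were lower (2.69%), 5.26% in all. In 122 genes (0.743%) every Tie2-Cre library lay above every control, and in 145 (0.883%) every one lay below. The median log2 difference over all tested genes was 0.00.

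After Prss56, the 9 genes of smallest p in the higher direction were Xlr3a, C1ql3, Crybb1, Fbln1, Sparc, Hyi, Crispld2, Cebpd and Reck, and none of them was called. Xlr3a, of the X-linked lymphocyte-regulated family, had 0.868, 0.513, 0.889 and 0.804 CPM in controls and 1.82, 3.64, 2.49, 2.27 and 2.07 CPM in Tie2-Cre. The groups did not overlap (log2 difference 1.67 ± 0.27 SE, edgeR adjusted p = 0.232), but 59.7% of its 31-base words are shared with other genes, Xlr3b above all, so the split of its reads is uncertain. C1ql3, a secreted C1q-like protein of synapses, had 46.8 to 53.5 CPM in controls against 61.5 to 74.0 CPM in Tie2-Cre (log2 difference 0.43 ± 0.07 SE, adjusted p = 0.232).

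Crybb1, a crystallin that microglia also express, had 2.53 to 4.59 and 5.44 to 9.31 CPM (log2 difference 1.07 ± 0.20 SE, adjusted p = 0.459). Matrix genes stood among the 9: Fbln1 (fibulin-1) had 9.21 to 9.88 CPM in controls against 11.2 to 16.0 CPM in Tie2-Cre, and Sparc, a matricellular protein of vessels and glia, 194 to 231 and 242 to 311 CPM. Their log2 differences were 0.53 ± 0.11 and 0.41 ± 0.09 (SE), each with an edgeR adjusted p of 0.705. Crispld2, a secreted protein, and Cebpd, a transcription factor of acute responses, had log2 differences of 1.05 ± 0.25 and 0.76 ± 0.18 (SE, adjusted p = 0.873 for both).

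After Sorcs2, the genes of smallest p in the lower direction included Ddx4, Exoc3l4, Qdpr, Echdc2, Sh3bp2, Psmc3ip, BC051226 and C1qtnf12, and none of them was called. Ddx4, the germ-cell RNA helicase, had 3.06, 3.63, 3.44 and 1.61 CPM in controls and 0.944, 1.40, 0.830, 0.959 and 0.804 CPM in Tie2-Cre (log2 difference -1.57 ± 0.27 SE, edgeR adjusted p = 0.232). Qdpr, which regenerates tetrahydrobiopterin, had 175 to 215 and 134 to 161 CPM (log2 difference -0.39 ± 0.08 SE, adjusted p = 0.523). Sh3bp2, an adaptor protein, had 4.46 to 5.33 and 2.02 to 3.46 CPM (log2 difference -0.77 ± 0.17 SE, adjusted p = 0.743). Psmc3ip, a factor of meiotic recombination, was split among the controls, with 6.86 and 6.79 CPM in replicates 1 and 2 and 1.74 and 2.08 CPM in replicates 3 and 4, while the Tie2-Cre libraries lay between 1.24 and 1.40 CPM.

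Of these 20 genes of smallest p, 16 had a Tie2-Cre range that overlapped the range of the 10-month controls, and 14 overlapped that of Emx1-Cre at 3 months. Sorcs2 was the 1 gene of the 20 whose Tie2-Cre range overlapped no other group. Reck, Sh3bp2, Sparc and Qdpr lay outside both other deletion groups of 3 months but overlapped the 10-month controls. Reck was higher than in Emx1-Cre by 0.74 (edgeR adjusted p = 0.00183) and than in Thy1-Cre by 0.86 (adjusted p = 0.00248), and Sh3bp2 differed by -1.39 (adjusted p = 0.00107) and by -2.09 (adjusted p = 0.000197).

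Endothelial genes were taken from 10 lists of core identity, barrier, transport, Wnt, Notch, venous, VEGF, TGF-beta, shear and activation genes. Together they held 184 genes, of which 175 passed the filter on low counts. No endothelial gene was called, against 0.0122% of all tested genes; 17 had an unadjusted p under 0.05 (9.71%, against 5.26% of all tested genes), 13 of them higher (7.43%, against 2.57%) and 4 lower (2.29%, against 2.69%). The log2 difference was above 0 in 120 of the 175 and below 0 in 55, with a median of 0.10 against 0.00 over all genes. For 151 of the 175 the 95% interval lay within -1 and 1 on the log2 scale. The lowest was Gkn3, at -1.10, and the highest Ch25h, at 0.76.

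The size of the shift above 0 depended on single controls. The mean log2 CPM over the 175 genes, relative to the mean of the controls, was 0.15, 0.01, -0.26 and 0.10 in control replicates 1 to 4 and 0.07, 0.19, 0.05, 0.16 and 0.05 in Tie2-Cre replicates 1 to 5. The Tie2-Cre libraries thus lay within the range of the controls except replicates 2 and 4, which lay just above it. Without control replicate 3 the median over the endothelial genes was 0.03, with 99 of 175 above 0. At an unadjusted p under 0.05, 8 were higher (4.57%, against 2.22% of all tested genes) and 6 lower, together 8% against 5.13%. Without control replicate 1 the median was 0.15, with 129 above 0. There 21 were higher (12%, against 3.89% of all tested genes) and 2 lower, together 13.1% against 6.89%. In the fit of the 20 libraries of 3 months the median was 0.09. That fit had 3 higher (1.71%, against 0.637% of all tested genes) and 1 lower, together 2.29% against 1.63%.

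Control replicate 3 had the most RNA of the choroid plexus, with the 1135 CPM of Ttr. The 16 genes of that list summed to between 43.1 and 1371 CPM in the controls and between 86.5 and 484 CPM in Tie2-Cre. All 15 tested genes of the list had a log2 difference below 0, with 0 at an unadjusted p under 0.05. Of its 5 defining markers, Kcne2 stood at 0 in 1 library and the other 4 in none. Its part in the endothelial levels was not tested.

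**Figure D3:**
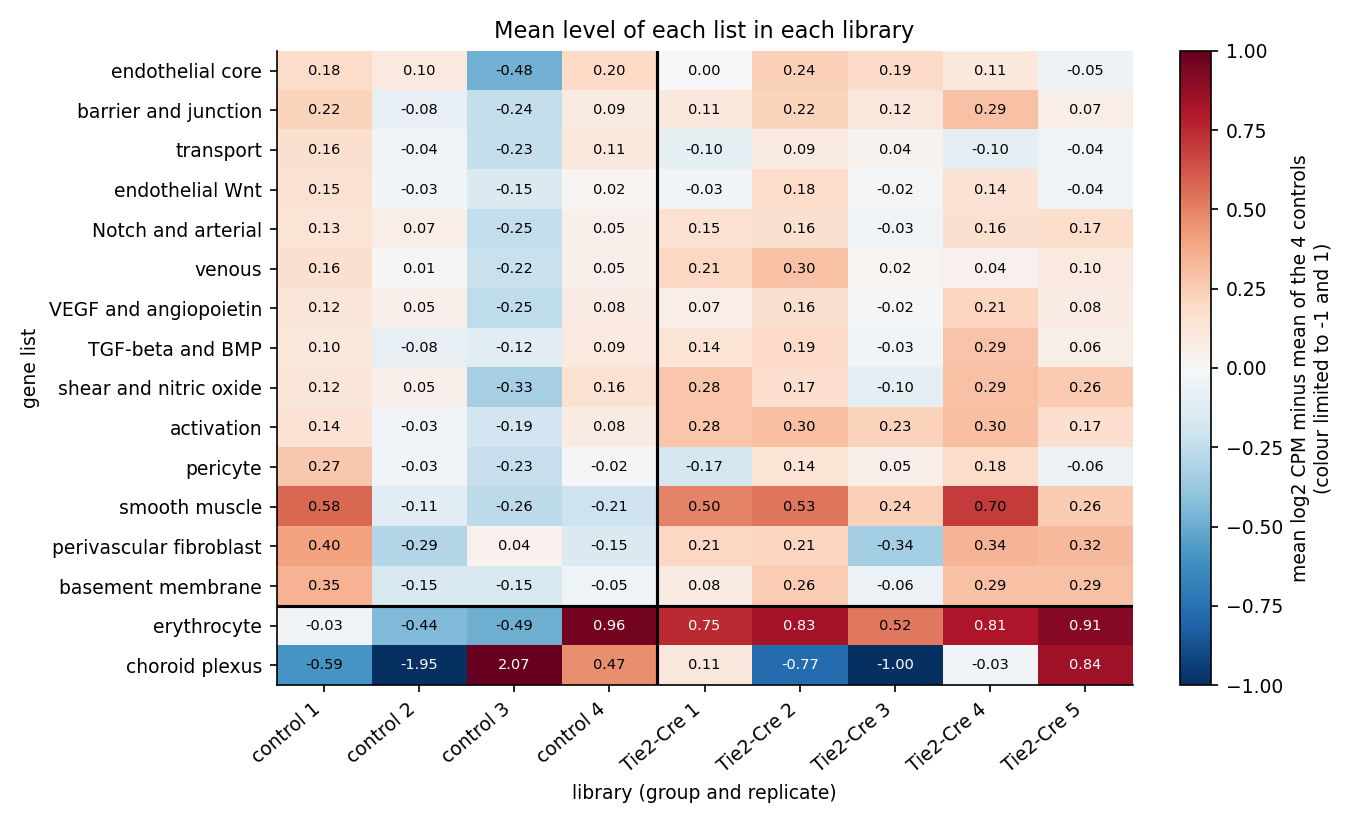
Mean log2 CPM of each gene list in each of the 9 libraries, less the mean of the 4 controls, for the vascular lists and, below the line, erythrocyte and choroid plexus genes. Control replicate 3 is lowest in the endothelial core list (-0.48) and highest in the choroid plexus list (2.07).

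Among the core genes of endothelium, 40 of 40 were tested and 3 had an unadjusted p under 0.05 (7.5%, against 5.26% of all tested genes). Flt1, a VEGF receptor that acts mostly as a decoy, had 72.0, 68.1, 33.1 and 70.9 CPM in controls and 56.1, 69.4, 67.6, 64.3 and 64.2 CPM in Tie2-Cre (log2 difference 0.08 ± 0.20 SE). Only control replicate 3 lay apart. Kdr, the main signalling receptor of VEGF, had 13.7, 11.2, 7.92 and 8.28 CPM and 7.12, 8.33, 8.67, 8.29 and 4.82 CPM, with overlap of the groups (log2 difference -0.47 ± 0.20 SE, unadjusted p = 0.0371, edgeR adjusted p = 0.949). The transcription factor Tal1 and the membrane lectin Clec14a had log2 differences of 0.55 ± 0.24 and 0.49 ± 0.22 (SE), both with adjusted p of 0.949.

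Other abundant core genes overlapped between the groups. Cd34, a surface sialomucin, had 58.0 to 72.0 CPM in controls against 58.7 to 77.4 CPM in Tie2-Cre. Ptprb, the phosphatase that opposes Tek, had 21.2 to 51.5 and 34.2 to 48.6 CPM. Cdh5, the cadherin of endothelial junctions, had 7.29 to 15.7 and 12.1 to 17.3 CPM (log2 difference 0.26 ± 0.20 SE, edgeR adjusted p = 0.969).

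**Figure D4:**
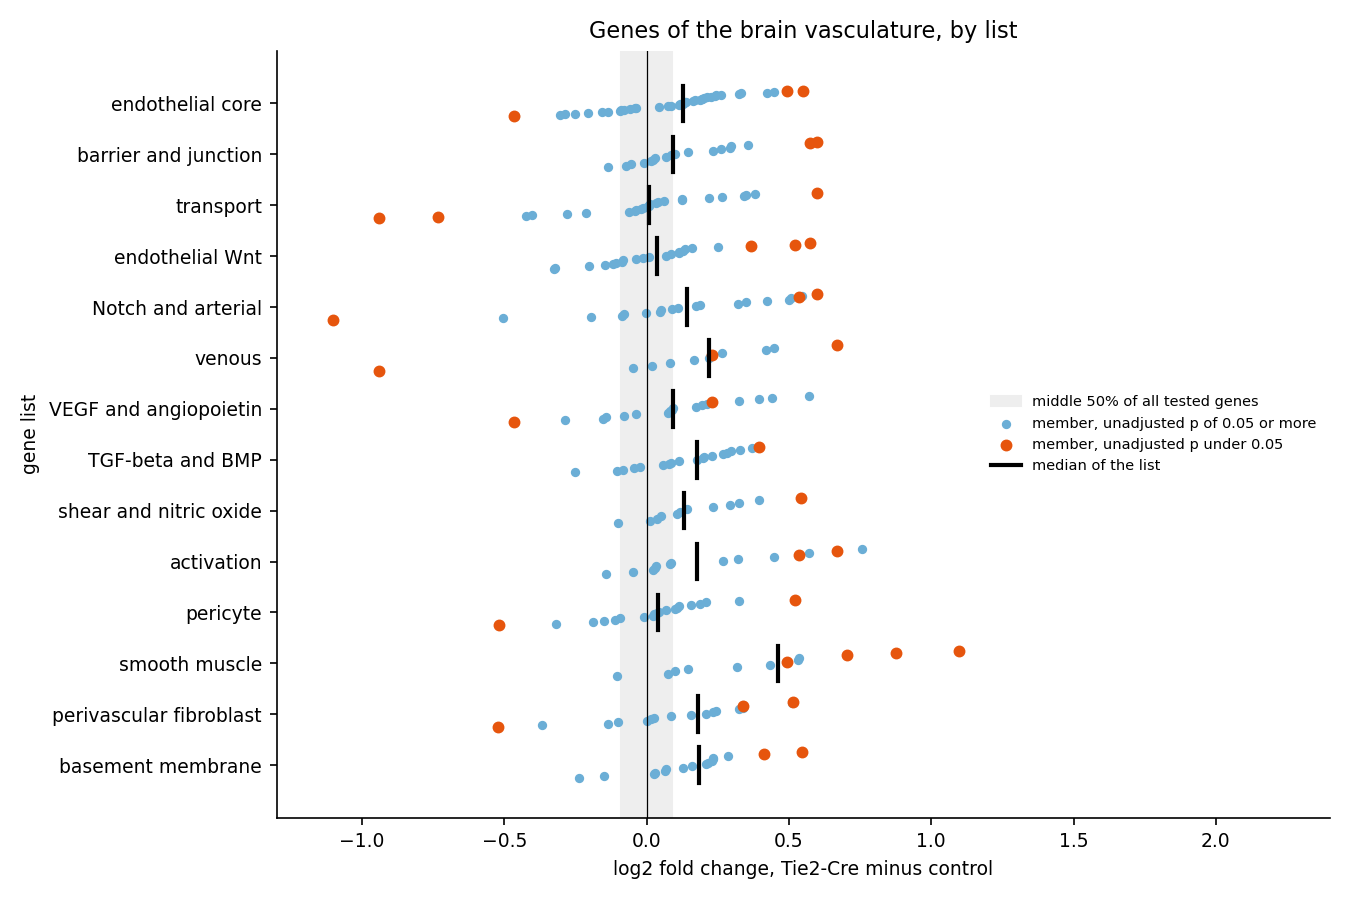
Log2 fold change of Tie2-Cre minus control for every tested member of 14 vascular gene lists; orange points had an unadjusted p under 0.05, black bars are list medians and the grey band holds the middle 50% of all tested genes. No member was called; the smooth muscle list had the highest median, 0.46.

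Barrier and carrier genes did not move as a block. In the barrier and junction list 14 of 18 members lay above 0, with a median of 0.09. An unadjusted p under 0.05 was found for 2 (11.1%, against 5.26% of all tested genes). These were Lsr, a protein of tricellular junctions (log2 difference 0.57 ± 0.21 SE, edgeR adjusted p = 0.923), and Mfsd2a. Mfsd2a, the lipid carrier that keeps transcytosis low, had 35.8, 26.1, 23.1 and 29.3 CPM in controls and 28.6, 34.0, 39.0, 51.3 and 63.4 CPM in Tie2-Cre. The groups overlapped, and Tie2-Cre replicates 4 and 5 were highest (log2 difference 0.60 ± 0.24 SE, edgeR adjusted p = 0.949).

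The transport list had 26 tested members and a median of 0.01. Slc2a1, the glucose carrier GLUT1, had 120, 122, 79.8 and 145 CPM and 119, 148, 132, 138 and 222 CPM, with overlap (log2 difference 0.38 ± 0.22 SE, adjusted p = 0.969). Tfrc, the transferrin receptor, had 60.9 to 106 and 92.3 to 140 CPM. The monocarboxylate carrier Slc16a4 and the glutamine carrier Slc38a5 were the lower ones, at -0.73 ± 0.25 and -0.94 ± 0.42 (SE, edgeR adjusted p = 0.923 and 0.949).

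Of the 22 genes of the endothelial Wnt list, 12 lay above 0 and the median was 0.04. Reck, the membrane-anchored partner of Adgra2 in the recognition of Wnt7, was the endothelial gene of smallest p. It had 11.7, 8.09, 7.41 and 11 CPM in controls and 13.3, 14.7, 14.8, 13.3 and 14.9 CPM in Tie2-Cre. The groups did not overlap, which held in the higher direction for 2 of the 175 endothelial genes (Reck and Edn1, 1.14%, against 0.743% of all tested genes), and the log2 difference was 0.58 ± 0.14 (SE, unadjusted p = 0.00118, edgeR adjusted p = 0.873). The Wnt co-receptor Lrp5 and the vascular transcription factor Foxf2 had log2 differences of 0.37 ± 0.15 and 0.52 ± 0.23 (SE). Axin2, a common target of the pathway, was at 0.11 ± 0.08 (SE, adjusted p = 0.969).

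The Notch and arterial list had 14 of 20 members above 0, with a median of 0.14. Gkn3, a marker of arterial endothelium in brain, had 3.72, 3.12, 3.37 and 2.32 CPM in controls and 2.91, 1.63, 0.876, 1.31 and 0.508 CPM in Tie2-Cre (log2 difference -1.10 ± 0.39 SE, edgeR adjusted p = 0.923). The groups overlapped through Tie2-Cre replicate 1. Edn1, which encodes the vasoconstrictor endothelin-1, had 2.60, 2.25, 1.63 and 2.22 CPM and 2.87, 4.23, 2.91, 2.83 and 2.92 CPM, with no overlap (log2 difference 0.54 ± 0.20 SE, adjusted p = 0.949). The arterial kinase Bmx was at 0.60 ± 0.27 (SE).

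Genes of veins and of activated endothelium had 9 of 11 and 12 of 14 members above 0, with medians of 0.22 and 0.18. Icam1, the adhesion molecule for leukocytes, had 1.20 to 1.85 CPM in controls against 1.85 to 2.94 CPM in Tie2-Cre (log2 difference 0.67 ± 0.22 SE, edgeR adjusted p = 0.923). Vwf, the von Willebrand factor of large vessels, had 10.4 to 20.2 and 15.9 to 26.3 CPM (log2 difference 0.45 ± 0.21 SE, adjusted p = 0.949). Vcam1 was at -0.05 ± 0.14 (SE), and Sele, Selp, Ccl2 and Il6 were among 7 members of the activation list that did not pass the filter on low counts.

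The remaining endothelial lists, of VEGF and angiopoietin, TGF-beta and BMP, and shear and nitric oxide genes, had medians of 0.09, 0.18 and 0.13. Tgfbr2, the type II receptor of TGF-beta, had 17.3, 17.1, 14.3 and 20.8 CPM in controls and 20.8, 23.3, 21.8, 24.4 and 23.9 CPM in Tie2-Cre. Control replicate 4 and Tie2-Cre replicate 1 were the libraries in which the groups met (log2 difference 0.40 ± 0.11 SE, unadjusted p = 0.00281, edgeR adjusted p = 0.896). Klf4, a transcription factor induced by flow, was at 0.54 ± 0.22 (SE, adjusted p = 0.949).

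Cells around the endothelium gave no called gene either. The pericyte list had a median of 0.04 over 20 genes, and its most abundant member, Rgs5, had 55.8 to 96.0 CPM in controls against 63.0 to 81.7 CPM in Tie2-Cre. In the smooth muscle list 11 of 12 tested genes lay above 0, with a median of 0.46. An unadjusted p under 0.05 was found for 4, Cnn1, Aoc3, Myh11 and Tagln (33.3%, against 5.26% of all tested genes). Myh11, the smooth muscle myosin heavy chain, had 9.21, 4.97, 3.37 and 4.35 CPM in controls and 11.8, 9.61, 6.55, 9.99 and 6.60 CPM in Tie2-Cre. Control replicate 1 lay within the range of the Tie2-Cre libraries (log2 difference 0.70 ± 0.29 SE, edgeR adjusted p = 0.949).

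In the basement membrane list, which also holds Sparc, 14 of 16 genes lay above 0, with a median of 0.18. Hspg2, which encodes perlecan, was at 0.55 ± 0.17 (SE, adjusted p = 0.923), and Col4a1, a chain of collagen IV, at 0.23 ± 0.21. In the perivascular fibroblast list, with a median of 0.18, Col6a1 (collagen VI) had 70.1, 37.9, 54.4 and 38.8 CPM in controls and 32.4, 30.9, 31.3, 40.5 and 40.1 CPM in Tie2-Cre (log2 difference -0.52 ± 0.18 SE, edgeR adjusted p = 0.923).

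The distance of the Tie2-Cre libraries from the other deletion groups of 3 months was tested by direct contrasts. The fit held the 20 libraries of 3 months, so the 4 controls entered its filter, scaling and spread. Of 17425 genes, 18.1% were higher and 20.2% lower in Tie2-Cre than in Emx1-Cre, and 6.22% were higher and 9.58% lower than in Thy1-Cre. Both contrasts share the Tie2-Cre libraries. Genes too low in the 9 libraries could pass the filter through Emx1-Cre or Thy1-Cre, which favours a lower level in Tie2-Cre. Of the endothelial genes 175 passed in the 9 libraries. The Thy1-Cre mice were all female by their counts, and with sex as a covariate 3.01% were higher and 5.25% lower than in Thy1-Cre. Of the 183 endothelial genes tested there, 26 were higher (14.2%) and 44 lower (24%) than in Emx1-Cre, and 9 were higher (4.92%) and 30 lower (16.4%) than in Thy1-Cre, or 4 (2.19%) and 14 (7.65%) with sex as a covariate.

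The activation list held the most of the lower genes: 15 of its 20 tested members were lower than in Emx1-Cre, with a median of -1.84, and 11 were lower than in Thy1-Cre, with a median of -1.76. Of the venous genes 7 of 13 were lower in each contrast. Over all tested genes 20.2% were lower than in Emx1-Cre and 9.58% lower than in Thy1-Cre. In the 9 libraries 14 activation and 11 venous genes had passed the filter. The further members passed only with the other deletion groups present, so the filter favoured their lower level in Tie2-Cre. With sex as a covariate 4 activation genes (20%) and 1 venous gene (7.69%) were lower than in Thy1-Cre, against 5.25% of all tested genes. Tek was higher in Tie2-Cre than in Emx1-Cre by 0.85 (edgeR adjusted p = 0.00272), and its difference from Thy1-Cre was 0.05 (adjusted p = 0.893). Brap differed by -0.53 from Emx1-Cre (edgeR adjusted p = 0.00197), and its difference from Thy1-Cre, -0.29, was not called (adjusted p = 0.111). The Emx1-Cre libraries themselves lay above the 3-month controls in Brap, with 68.5 to 114 CPM against 58.4 to 66.5 CPM (log2 difference 0.63, adjusted p = 0.00117), although their label gives a deletion of the gene. The Thy1-Cre libraries, with 71.7 to 90.4 CPM, also lay above every 3-month control.

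Single endothelial genes went both ways. Cd34 was higher than in Emx1-Cre by 0.87 (edgeR adjusted p = 0.000768) and than in Thy1-Cre by 0.68 (adjusted p = 0.012). Eng, a co-receptor of TGF-beta, differed by -1.33 (adjusted p = 0.00117) and -0.81 (adjusted p = 0.0494), and Vwf by -1.63 (adjusted p = 0.00397) and -1.48 (adjusted p = 0.0183). Sparc and Cebpd, higher than control at small but uncalled p, were lower than in both deletion groups: Sparc differed by -1.72 (adjusted p = 7.41e-05) and -1.10 (adjusted p = 0.00428), and Cebpd by -3.46 (adjusted p = 0.000619) and -1.79 (adjusted p = 0.0481). With sex as a covariate the differences from Thy1-Cre were no longer called for Cd34 (edgeR adjusted p = 0.0515), Eng (0.195), Vwf (0.0657) and Cebpd (0.174).

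Genes downstream of RAS were examined because Brap restrains that pathway. In the list of ERK feedback and target genes none of 18 was called and the median was 0.02. Etv1, a transcription factor induced by ERK, had 78.6 to 86.5 CPM in controls against 89.4 to 107 CPM in Tie2-Cre, and Spry1, a feedback inhibitor, 6.15 to 7.81 and 8.35 to 9.55 CPM. Neither range overlapped, and the log2 differences were 0.22 ± 0.06 and 0.31 ± 0.11 (SE, edgeR adjusted p = 0.923 for both). These were the 2 of the 18 genes that lay above every control, as did 0.743% of all tested genes. Of the 18 genes 10 lay above 0 and 8 below, the lowest at -0.23. The list of RAS to ERK pathway members had 0 of 22 at an unadjusted p under 0.05, and all of its log2 differences lay between -0.12 and 0.18.

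Glial and immune genes were not called. Gfap, the intermediate filament of reactive astrocytes, had 175, 242, 168 and 179 CPM in controls and 223, 265, 268, 330 and 238 CPM in Tie2-Cre. Control replicate 2 lay within the range of the Tie2-Cre libraries (log2 difference 0.47 ± 0.13 SE, unadjusted p = 0.00401, edgeR adjusted p = 0.923). Its difference from Emx1-Cre was -3.00 on the log2 scale (edgeR adjusted p = 8.72e-05) and from Thy1-Cre -3.44 (adjusted p = 8.51e-05). Of the 28 reactive astrocyte genes tested in those contrasts, 24 were lower than in Emx1-Cre (20.2% of all genes). Lower than in Thy1-Cre were 25 (9.58% of all genes), or 21 with sex as a covariate. The filter of the 9 libraries passed 22 of the 28. The others passed only with Emx1-Cre and Thy1-Cre present, which favoured a lower level in Tie2-Cre. Against control 3 of the 22 had an unadjusted p under 0.05 (13.6%, against 5.26% of all tested genes).

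Complement genes lay above 0 in 12 of 13 cases, with a median of 0.31. C3, the central component of the cascade, had 0.454, 0.276, 0.259 and 0.379 CPM in controls and 0.617, 0.892, 1.34, 1.05 and 0.931 CPM in Tie2-Cre. The groups did not overlap (log2 difference 1.48 ± 0.33 SE, edgeR adjusted p = 0.743). Of the 13 genes 1 lay above every control in this way, against 0.743% of all tested genes. Homeostatic microglial genes had a median of 0.08, with 0 of 18 at an unadjusted p under 0.05. Myelin genes lay below 0 in 15 of 19 cases, with a median of -0.09, and synaptic genes above 0 in 24 of 33, with a median of 0.06.

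Blood RNA differed between libraries. Hbb-bs, an adult beta globin, had 143, 104, 98.3 and 230 CPM in controls and 230, 263, 184, 238 and 219 CPM in Tie2-Cre. Control replicate 4 lay within the Tie2-Cre range and the other controls below it. Of its 31-base words 54.4% are shared with other genes, Hbb-bt above all, so the split of reads among the globins is uncertain. The log2 difference was 0.66 ± 0.25 (SE, edgeR adjusted p = 0.949). The 7 erythrocyte genes found in the data summed to between 216 and 525 CPM in controls and between 406 and 547 CPM in Tie2-Cre. All 5 tested erythrocyte genes lay above 0. Their part in the levels of vascular genes was not tested. Leukocyte genes were low, and 3 of 18 passed the filter on low counts. Cd3e, of T cells, lay between 0 and 0.0872 CPM with 3 libraries at 0, S100a8, of neutrophils, between 0 and 0.507 CPM with 1 at 0, and Cd79a, of B cells, between 0.0946 and 0.702 CPM with none at 0.

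Some genes varied in steps between libraries of 1 group. Rps18, a ribosomal protein gene on chromosome 17, had 69.0, 83.1, 133 and 122 CPM in controls and 66.9, 2.67, 3.51, 4.01 and 3.81 CPM in Tie2-Cre. Replicate 1 of Tie2-Cre lay near the controls and the other 4 far below. The log2 difference was -2.63 ± 1.09 (SE, edgeR adjusted p = 0.949), and without that replicate Rps18 was called, at -4.86 (adjusted p = 0.000346). Over the 30 libraries Rps18 lay between 2.67 and 6.62 CPM in 18 and between 56.4 and 133 CPM in 12, with none between. The lower level held 4 Tie2-Cre, 6 Emx1-Cre and 5 Thy1-Cre libraries of 3 months, 1 control and 2 Emx1-Cre libraries of 10 months. Of its 31-base words 22.4% are shared with other genes, so its level is uncertain.

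The major histocompatibility region of chromosome 17, where Rps18 lies, held other genes that varied within groups. H2-Ob, a class II chain of B cells, had 3.35, 0.552, 0.222 and 0.426 CPM in controls and 2.36, 4.42, 3.41, 5.41 and 4.78 CPM in Tie2-Cre. Here control replicate 1 lay within the Tie2-Cre range (log2 difference 1.84 ± 0.70 SE, edgeR adjusted p = 0.949). C4b, complement component 4, had 54.9, 40.1, 23.8 and 22.4 CPM in controls and 54.9, 85.0, 121, 89.1 and 78.8 CPM in Tie2-Cre. Control replicate 1 and Tie2-Cre replicate 1 were level (log2 difference 1.28 ± 0.33 SE, adjusted p = 0.923), and C4b shares 48.3% of its 31-base words with other genes, C4a above all.

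**Figure D5:**
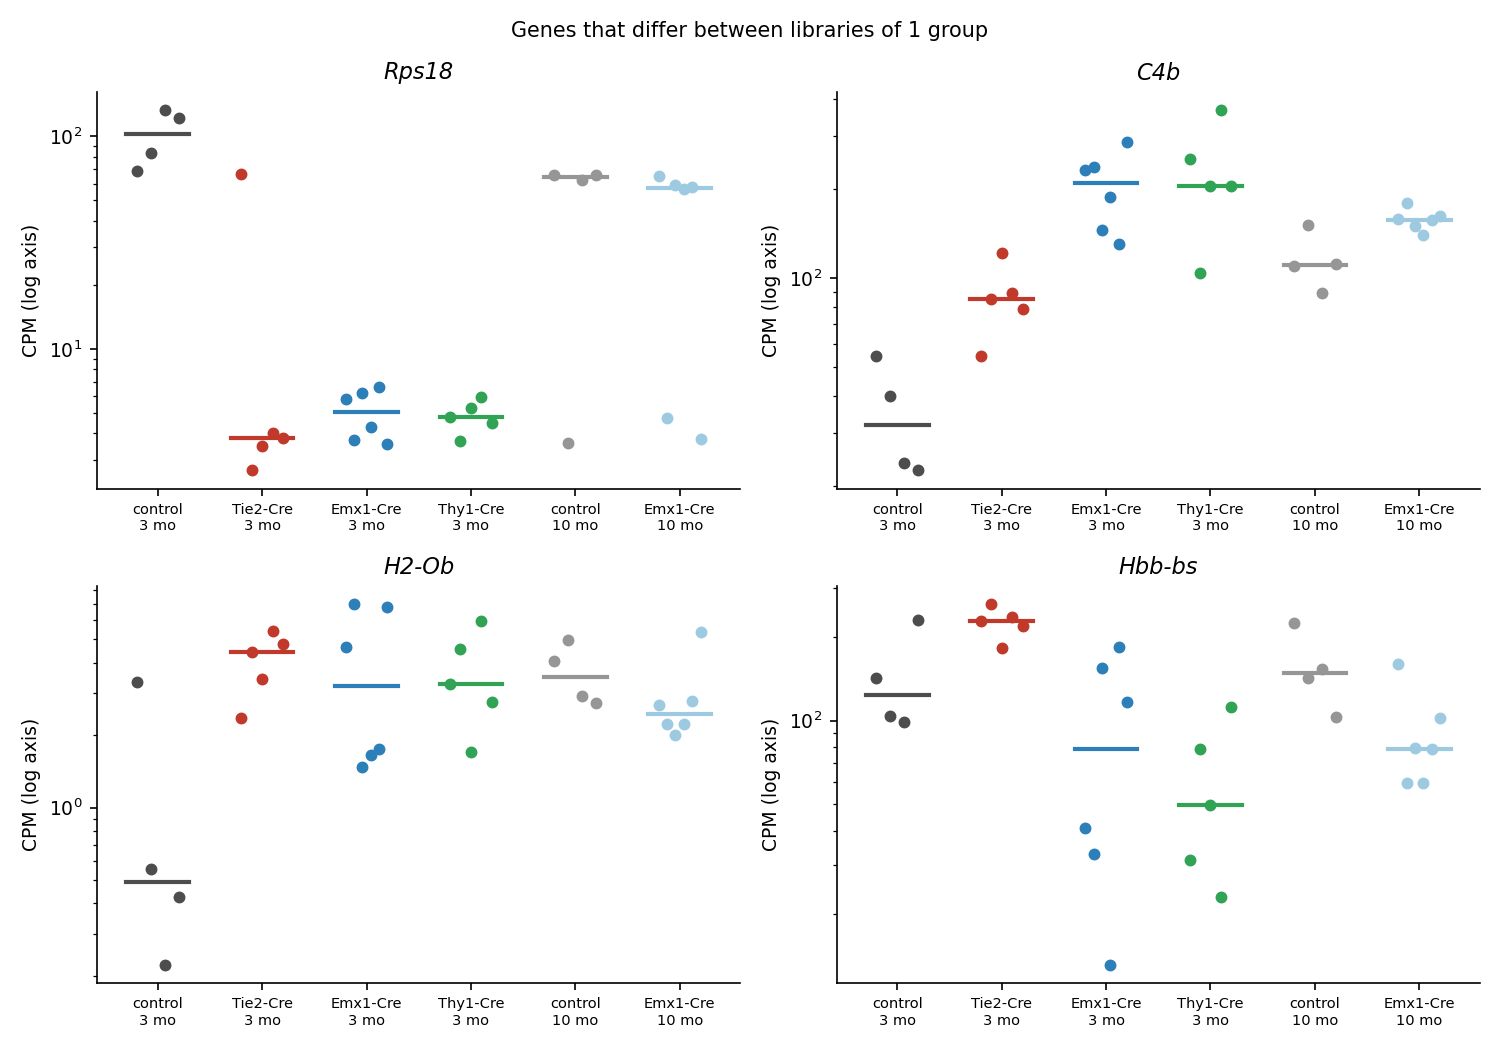
Level of Rps18, C4b, H2-Ob and Hbb-bs in CPM (log axis) in each of the 30 libraries by group, with the median as a bar (mo, months). Rps18 falls on 2 separate levels, and 1 Tie2-Cre library, at 66.8 CPM on the scale of the 30 libraries, stands with the 3-month controls.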

How the data were processed

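Whole-cortex polyadenylated RNA libraries were compared, 5 Tie2-Cre and 4 control mice of 3 months. The deposited values are estimated counts per gene, made by the authors with Salmon 1.5.2 on build GRCm38, per the submitters' processing notes; the sources used here do not give the annotation release or strand setting. Between 15.1% and 21.9% of the values in these 9 libraries were not whole, and all were rounded. Genes were kept by edgeR's filterByExpr (minimum count 10, minimum total count 15), scaled by TMM and tested with glmQLFit (robust) and glmQLFTest of edgeR 4.0.16 under R 4.3.3. Only the 9 libraries entered this fit, so that its spread is that of these groups. Contrasts with Emx1-Cre and Thy1-Cre came from the 20 libraries of 3 months. SE is the log2 difference divided by the square root of F. Replicates are separate samples by label. The p-values set the difference between groups against the spread between replicates, which edgeR moderates across genes. List means used log2 CPM with a prior count of 2.

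The members and the lists were chosen with earlier results of these data known. Named were Brap, Tek and genes within 250 kb of Brap, called genes, the 10 genes of smallest p per direction with at least 1 CPM, and up to 6 most abundant members of each vascular list. The text describes only some of these genes; none beside Prss56 and Sorcs2 was called, and 1 of them is not reported here. Members named for an unadjusted p, and Rps18, H2-Ob, C4b, Ttr and the haemoglobin genes, were chosen after their values were seen. Of 54418 identifiers 54096 were found in GENCODE M21 (GRCm38), which gave coordinates and the transcripts for shared 31-base words. No pair of the 9 libraries was identical. The pipeline was tested on simulated data. Alternatives were RLE and upper-quartile scaling, no filter, at least 1 CPM in 4 libraries, DESeq2 1.42.0 with its own filtering, voom with quality weights (limma 3.58.1), all 30 libraries, sex as a covariate, a block for the replicate number, and omission of single libraries; the fit of 20 libraries to the comparison with control was chosen after seeing the data.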

Additional observations from a re-analysis of the deposited data

Results flagged for a closer look

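For the named genes, 300 groups of 4 or 5 libraries were tested for 1 library whose gap to the nearest other, over the range of the group, passed Dixon's 95% value, and 18 passed. Chance alone flags about 1 in 20 groups. Among Tie2-Cre libraries, replicate 5 stood high in Prss56 (14.5 CPM, others 4.47 to 6.58) and Slc2a1 (222 CPM, others 119 to 148). Replicate 4 stood high in Amotl1 (45.3 CPM, others 27.7 to 32.0) and Apln (36.2 CPM, others 25.8 to 28.8). Replicate 3 stood low in Fmod (18.1 CPM, others 25.4 to 27.7) and high in Lamp5 (209 CPM, others 136 to 141). Replicate 2 stood high in Ddx4 (1.40 CPM, others 0.804 to 0.959), and replicate 1 in Rps18 (66.9 CPM, others 2.67 to 4.01).

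Among controls, replicate 2 stood low in Sorcs2 (52.6 CPM, others 68.4 to 69.2) and high in Unc5b (33.7 CPM, others 26.6 to 27.8), Vegfb (62.7 CPM, others 51.3 to 52.8) and Gfap (242 CPM, others 168 to 179). Replicate 3 stood low in Flt1 (33.1 CPM, others 68.1 to 72.0). Replicate 4 stood high in Id2 (113 CPM, others 93.2 to 95.9), Gucy1a1 (109 CPM, others 94.3 to 96.4) and Hbb-bt (46.1 CPM, others 11.9 to 16.8). Replicate 1 stood high in Agrn (200 CPM, others 134 to 143) and H2-Ob (3.35 CPM, others 0.222 to 0.552).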

How the results depend on the processing

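The 2 calls were kept under RLE scaling, upper-quartile scaling and a filter of at least 1 CPM in 4 libraries. No filter gave 7 called genes (4 higher, 3 lower) and DESeq2 18 (9 and 9), a setting in which both the tool and the filter differed (28280 genes tested, 9878 of them without an adjusted p), each with both Prss56 and Sorcs2 among them. Fewer were called with limma voom with quality weights (0, with 1116 at an unadjusted p under 0.05), all 30 libraries (0, with 299), the 20 libraries of 3 months (0, with 284) and sex as a covariate (1, Prss56). Leaving out single libraries gave 0 to 14. Without control replicate 4 there were 14, which included Hba-a1, Hba-a2, Hbb-bs and Hbb-bt, all higher; without Tie2-Cre replicate 3 there were 6; without control replicate 1 only H2-Ob was called, without control replicate 2 only Sorcs2, and without Tie2-Cre replicate 5 only Prss56. Prss56 passed under 12 and Sorcs2 under 9 of 19 alternatives, with log2 differences from 3.83 to 4.47 and from -0.85 to -0.73. No called value changed sign, and 54 of 150 named genes changed sign while not called. All 480 list values under RLE scaling and without single libraries moved by less than 1 SD between replicates. Leaving out 1 library from groups of 4 or 5 cannot move a difference of means that far. This bound could therefore not show whether the list values depend on single libraries.

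With the replicate block 1 gene was called (Prss56). The labels share numbers between the groups, but same-numbered libraries did not deviate together (correlations from -0.23 to 0.04 over 4 pairs), so the numbers do not pair the samples. The contrast with Thy1-Cre had 2753 called genes, 1439 (524 higher, 915 lower) with sex as a covariate and 1797 to 3056 without single libraries, with 1797 without Thy1-Cre replicate 5 and 1798 without Tie2-Cre replicate 1; the Thy1-Cre libraries were all female by their counts. The contrast with Emx1-Cre had 6665, and 5380 to 8110 without single libraries.

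At 21430882 to 27270647 counts a library, the median half-width of a 95% interval was 0.39 on the log2 scale for the endothelial genes and 0.26 for all tested genes.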

Other observations

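Genes that respond to glucocorticoids lay above 0 in 9 of 11 cases, with a median log2 difference of 0.36. An unadjusted p under 0.05 was found for 4 of them, Plin4, Fkbp5, Mt1 and Sult1a1 (36.4%, against 5.26% of all tested genes). None was called. Fkbp5, a chaperone that damps the glucocorticoid receptor, had 42.3, 37.5, 36.8 and 55.2 CPM in controls and 56.5, 57.5, 62.6, 58.7 and 123 CPM in Tie2-Cre. The groups did not overlap, which held in the higher direction for 1 of the 11 genes and for 0.743% of all tested genes. The log2 difference was 0.74 ± 0.27 (SE, edgeR adjusted p = 0.949), and replicate 5 of Tie2-Cre stood far above the rest. Plin4, a lipid droplet protein, was also highest in that replicate, at 89.9 CPM against 7.58 to 18.4 CPM in controls. Averaged over the list, log2 CPM less the mean of the controls came to 0.06, 0.10, 0.32, 0.42 and 1.09 in Tie2-Cre replicates 1 to 5. The same replicate was the highest of the 9 libraries in Prss56, Mfsd2a and Slc2a1.

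Among genes of disease-associated microglia, Spp1, or osteopontin, had 6.28, 1.54, 4.85 and 10.2 CPM in controls and 12, 11.4, 13.6, 14.2 and 10.5 CPM in Tie2-Cre. The groups did not overlap (log2 difference 1.12 ± 0.42 SE, edgeR adjusted p = 0.949). In this list 2 genes lay above every control and 1 below, against 0.743% and 0.883% of all tested genes. The list had 15 of 21 genes above 0, with a median of 0.03. In the fit of 20 libraries 19 of 25 genes tested were lower than in Emx1-Cre, as were 20.2% of all genes. The members beyond the 21 passed the filter only with the other deletion groups present, which favoured a lower level in Tie2-Cre.

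The 10 Mb window of chromosome 17 from 30 to 40 Mb, where Rps18 lies, was chosen after values were seen. In it 18 of 185 tested genes had an unadjusted p under 0.05 (9.73%, against 5.26% of all tested genes). This window ranked 21 of 244 windows with at least 20 tested genes. The highest share was that of chromosome 13 from 110 to 120 Mb, with 10 of 42 genes (23.8%), 6 higher and 4 lower.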
